A study of Mus musculus with 12 samples.

Results

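The genes described here are ribosome biogenesis genes, whose products make ribosomal RNA and build ribosomal subunits in the nucleolus and the cytoplasm. The list held 55 genes chosen by name, among them RNA polymerase I subunits, the core proteins of small nucleolar ribonucleoproteins, nucleolar chaperones, and assembly factors of the small and the large ribosomal subunit. A row of the array named for 1 gene was found for 53 of the 55, out of 19937 genes tested, and genes with more than 1 row were represented by their brightest row. Noc2l and Npm3 were not analysed here. The RNA of 4 populations of untreated C57BL/6 mouse bone marrow had been hybridised to Affymetrix Mouse Gene 1.0 ST arrays, 12 in total and 3 per population. LSK cells, the stem and progenitor cells, had been sorted as negative for lineage antigens and positive for Sca1 and cKit. Promyelocytes, myelocytes and granulocytes had been sorted on Gr-1, cKit, CD34 and CD16/32 after exclusion of cells with lymphoid antigens or Sca1. The populations are steps of granulopoiesis, in which progenitors become neutrophils, and the question was how the level of each gene differed from one step to the next. The labels call the arrays biological replicates without saying that they came from separate animals.

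Ribosome synthesis begins with the transcription of ribosomal DNA by RNA polymerase I. Small nucleolar ribonucleoproteins then guide the methylation and the pseudouridylation of the transcript, and assembly factors fold, cut and package it with ribosomal proteins into the small and the large subunit. The pathway takes much of the energy of growing cells, and many of its genes are known targets of the transcription factor Myc. Neutrophil precursors divide as promyelocytes and myelocytes, and the cells that follow are no longer in cycle. All levels below are log2 values, differences are log2 differences with their standard errors from limma, and a gene was called where it changed by 2-fold or more with an adjusted p (Benjamini-Hochberg) below 0.05. Equal amounts of RNA, 300 ng, had been labelled for every array, so a level is a share of the RNA of a sample, and fewer cells of a type and less RNA per cell cannot be told apart. Levels of different genes come from different probes and were not set against each other.

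The labels were checked against markers of each stage and of other cells. The summed linear level of the stem and progenitor markers was 7051 to 9363 on the LSK arrays and at most 3928 on the others. Primary granule genes summed to 14940 to 22090 in promyelocytes, secondary granule genes to 40720 to 43040 in myelocytes and mature neutrophil genes to 22820 to 24400 in granulocytes, in each case the highest range among the 4 stages. Primary granule genes were present on the LSK arrays too, with sums of 2540 to 11910. Eosinophil markers were higher in 2 promyelocyte arrays: Epx, the eosinophil peroxidase, stood at 9.81, 5.06 and 10.19 on promyelocyte arrays 1, 2 and 3, and their summed level ranged from 467 to 6051 in promyelocytes against 190 to 530 on the other arrays. Monocyte and macrophage markers summed to 4412 to 7677 in promyelocytes and to at most 3017 elsewhere. Those of basophils and mast cells summed to 5052 to 17520 in myelocytes and to 2551 to 6441 in promyelocytes. T and NK cell markers summed to 1382 to 2276 in promyelocytes and to at most 1069 elsewhere. Of these 7 markers, 1 was called higher and 1 lower in promyelocytes than in LSK cells. The counts of calls and the medians over the ribosome biogenesis genes and over the other gene lists were therefore also computed without promyelocyte arrays 1 and 3.

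All 53 genes differed among the 4 stages in the moderated F test at an adjusted p under 0.05, as did 54.0% of all genes. The median over the 53 genes was 8.18 to 8.37 on the LSK arrays, 8.47 to 8.96 in promyelocytes, 6.33 to 6.46 in myelocytes and 5.30 to 5.60 in granulocytes. The arrays of promyelocytes lay above those of LSK cells, and those of each later stage lay wholly below those of the stage before. The highest mean was in promyelocytes for 47 genes, in LSK cells for 5 and in granulocytes for 1, and the lowest mean was in granulocytes for 50 and in myelocytes for 3. Over the 53 genes the median difference was 0.31 from LSK cells to promyelocytes, -2.42 from promyelocytes to myelocytes and -0.81 from myelocytes to granulocytes. The medians over all genes tested were 0.04, 0.01 and 0.09. Successive comparisons share the arrays of the stage between them.

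**Figure D1:**
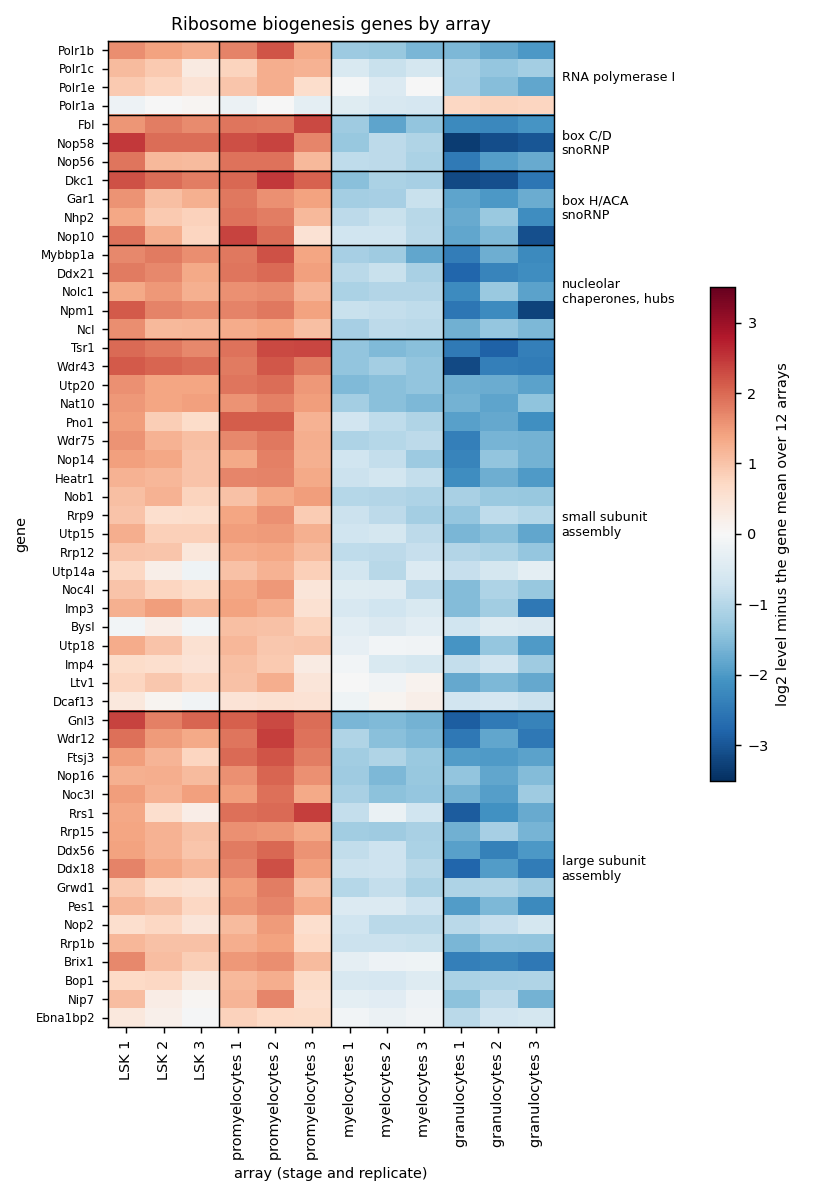
Level of each of the 53 ribosome biogenesis genes (rows, by role, ordered by the difference between myelocytes and promyelocytes) on each of the 12 arrays (columns), as the log2 level minus the mean of the gene over the 12 arrays. Nearly all rows are red on the 6 arrays of LSK cells and promyelocytes and blue on the 6 later arrays, and Polr1a is red in granulocytes instead.

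The promoters of these genes are shown because the members moved together and because Myc, with its partner Max, binds the E-box CACGTG. Promoters of 250 bases before to 50 bases after the annotated start were found for 47 of the 53 genes in RefSeq (GRCm38.p6). CACGTG, which reads the same on both strands, was present in 11 of the 47 (23.4%), against 9.50% of the 15613 measured genes with a promoter. In 8 of the 11 genes it lay after the start and in 3 before it. The windows of 30 bases around it are given for the 5 genes with the largest fall from promyelocytes to myelocytes and for Ltv1, the only one of the 11 that was not called there, with the E-box in capitals.
Tsr1: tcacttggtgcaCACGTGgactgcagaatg
Wdr43: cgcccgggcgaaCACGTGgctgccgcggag
Utp20: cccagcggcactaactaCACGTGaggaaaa
Mybbp1a: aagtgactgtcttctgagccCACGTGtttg
Pno1: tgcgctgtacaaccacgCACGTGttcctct
Ltv1: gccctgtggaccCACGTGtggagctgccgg
These windows lie at chr11:74898092-74898121 on the plus strand for Tsr1, at chr17:71616220-71616249 on the plus strand for Wdr43 and at chr10:88826765-88826794 on the minus strand for Utp20. They lie at chr11:72441347-72441376 on the plus strand for Mybbp1a, at chr11:17211540-17211569 on the minus strand for Pno1 and at chr10:13193092-13193121 on the minus strand for Ltv1. In all 6 the E-box began 17 to 40 bases after the annotated start. The median difference between myelocytes and promyelocytes was -2.42 over the 11 genes with the E-box and -2.44 over the 36 without it. Whether the fall differed with the E-box was not tested.

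A larger share of the members held CTTCCG or its complement CGGAAG, the letters at the centre of sites of ETS family factors. These letters were in 28 of the 47 promoters (59.6%), against 24.7% of measured genes. They lay in the 100 bases before the start in 16 genes, of which the 3 with the largest falls are shown together with Ddx21, where 2 copies on opposite strands lie within a single window. The matched letters are in capitals.
Tsr1: cgcgagaggtcgCGGAAGtgctaagcctga
Wdr12: tcgcccagttccCTTCCGactcgttctcct
Utp20: ctcggcccgcctCTTCCGcccacatgaccc
Ddx21: CTTCCGccggatgcactccgctgCGGAAGt
The windows are chr11:74898014-74898043 (plus strand), chr1:60098171-60098200 (minus strand), chr10:88826824-88826853 (minus strand) and chr10:62602316-62602345 (minus strand). GGGCGG or CCGCCC, the GC box of Sp1, was in 34 of the 47 (72.3%), against 52.9% of measured genes. The median difference between myelocytes and promyelocytes was -2.40 with and -2.62 without the ETS letters, and -2.56 with and -2.33 without the GC box. The promoters of Dkc1, Nob1 and Polr1a, all described below, held none of the 3 motifs in this window. Of these genes, Dkc1 and Nob1 were called lower in myelocytes than in promyelocytes (-3.42 and -2.30), and Polr1a was not called.

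From LSK cells to promyelocytes the differences of the ribosome biogenesis genes were small (median 0.31) and mostly above 0. Of the 53 genes, 1 was called higher and 0 lower by limma, where 1.61% and 2.75% of all genes were called in these directions. The difference lay above 0 for 47 genes and below 0 for 6, where it lay below 0 for 8808 of the 19937 genes tested. For 13 genes all promyelocyte arrays lay above all LSK arrays, which was so for 13.5% of all genes tested, and 9 genes passed the adjusted p at any fold, as did 5.79% of all genes. At an unadjusted p under 0.05 in either direction there were 21 of the 53 genes, against 25.4% of all genes. The gene called was Rrs1, a factor that brings the 5S ribonucleoprotein into the large subunit, which stood at 7.29, 6.52 and 6.16 in LSK cells and 7.85, 7.92 and 8.34 in promyelocytes. The lowest promyelocyte array lay above the highest LSK array, and Rrs1 rose by 1.38 ± 0.30 (2.61-fold, adjusted p = 0.00514). Its difference was 1.26 ± 0.43 without promyelocyte arrays 1 and 3, where it was no longer called (adjusted p = 0.124). The large subunit factor Ftsj3, a nucleolar methyltransferase, differed by 0.86 ± 0.17, adjusted p = 0.00344. The small subunit factor Bysl, also known as bystin, differed by 0.92 ± 0.14, adjusted p = 0.000491. Both passed the adjusted p and fell short of a fold of 2. Without promyelocyte arrays 1 and 3, which leaves 1 promyelocyte array, the median difference over the 53 genes was 0.52.

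The arrays within these early stages were not alike. On LSK array 1, 46 of the 53 genes lay above the mean of their stage, and on LSK array 3 only 2 did. On promyelocyte array 2 it was 48 genes, and on promyelocyte array 3 it was 6. Without LSK array 1 the number of genes called higher was 4, without LSK array 2 it was 2 and without promyelocyte array 3 it was 3. Over all 19937 genes the numbers called higher in these fits were 401, 365 and 403. Eosinophil markers were high on promyelocyte array 3 and on promyelocyte array 1, where 34 of the 53 genes lay above the mean of their stage. Primary granule genes had medians of 10.44, 10.93 and 8.30 on LSK arrays 1, 2 and 3, against 11.41 to 11.90 in promyelocytes. The part of these genes and of the eosinophil markers in the result was not tested.

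From promyelocytes to myelocytes the ribosome biogenesis genes fell as a group. Limma called 49 of the 53 genes lower and 0 higher, where 9.87% of all genes were called lower and 7.61% higher. All 3 myelocyte arrays lay below all 3 promyelocyte arrays for each of the 53 genes, as they did for 22.5% of all genes. The differences ranged from -3.73 for Gnl3 to -0.33 for Polr1a. Without promyelocyte arrays 1 and 3 the median difference was -2.68. That fit has only promyelocyte array 2 for its stage, the array with the most genes above the mean of the stage. Monocyte and macrophage markers were called higher in promyelocytes than in LSK cells for 8 of 8 genes and lower in myelocytes for 4 of 8. Of 7 markers of basophils and mast cells, 3 were called higher in myelocytes than in promyelocytes and 0 lower (median 1.39). Their median level was 10.12, 8.96 and 7.17 on myelocyte arrays 1, 2 and 3. The part of all these markers in the result was not tested.

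Among RNA polymerase I subunits 3 of 4 fell. Polr1b, which with Polr1a forms the catalytic centre of the enzyme, stood at 8.64, 9.11 and 8.23 in promyelocytes and 5.64, 5.59 and 5.30 in myelocytes. The stages were far apart, and Polr1b fell by 3.15 ± 0.20 (8.88-fold, adjusted p = 7.63e-09). Polr1c, a subunit shared with RNA polymerase III, fell by 1.73 ± 0.19 (3.31-fold, adjusted p = 3.11e-06). Polr1e, which helps the enzyme to engage ribosomal DNA, fell by 1.13 ± 0.20 (2.19-fold, adjusted p = 0.000323). That change was just past a fold of 2, and it was -0.98 without promyelocyte array 2 and -0.99 without myelocyte array 2, short of the call. The catalytic subunit Polr1a stood at 8.13, 8.33 and 7.99 in promyelocytes and 7.92, 7.78 and 7.75 in myelocytes, a difference of -0.33 ± 0.14, adjusted p = 0.0702, and was not called.

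All 7 core proteins of small nucleolar ribonucleoproteins fell. In the box C/D class, which methylates ribosomal RNA, the methyltransferase fibrillarin, Fbl, stood at 9.57, 9.56 and 10.00 in promyelocytes and 6.46, 5.86 and 6.33 in myelocytes. It fell by 3.49 ± 0.17 (11.2-fold, adjusted p = 5.07e-10). The scaffold proteins Nop58 and Nop56 fell likewise, as Nop58 fell by 3.21 ± 0.20 (9.22-fold, adjusted p = 4.9e-09) and Nop56 fell by 2.62 ± 0.25 (6.13-fold, adjusted p = 5.11e-07). In the box H/ACA class, which makes pseudouridine, the pseudouridine synthase dyskerin, Dkc1, stood at 9.42, 9.87 and 9.46 in promyelocytes and 5.94, 6.30 and 6.24 in myelocytes. The lowest promyelocyte array lay more than 3 log2 units above the highest myelocyte array, and Dkc1 fell by 3.42 ± 0.19 (10.7-fold, adjusted p = 1.92e-09). Its partners Gar1 (-2.67), Nhp2 (-2.50) and Nop10 (-2.38) were also called. Nop10 had the widest spread of the class, with 10.64, 10.22 and 8.78 in promyelocytes.

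All 5 nucleolar chaperones and hubs fell. Nucleophosmin, Npm1, the abundant chaperone of the granular nucleolus, stood at 10.46, 10.57 and 10.14 in promyelocytes and 7.95, 7.88 and 7.83 in myelocytes and fell by 2.51 ± 0.22 (5.68-fold, adjusted p = 2.37e-07). Npm1 also has rows shared with a near-identical gene, which were not used, and its probes may read such copies. The largest fall of this group was that of Mybbp1a, a nucleolar Myb-binding protein, which fell by 3.23 ± 0.23 (9.35-fold, adjusted p = 2.63e-08). The RNA helicase Ddx21 fell by 2.71 ± 0.19 (6.53-fold, adjusted p = 2.55e-08), and the smallest fall was that of nucleolin, Ncl, which fell by 2.25 ± 0.16 (4.76-fold, adjusted p = 3.19e-08). Nolc1, which carries small nucleolar ribonucleoproteins, differed by -2.52.

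Of 20 small subunit factors 18 fell, with a median difference of -2.19. The largest change was that of Tsr1, a factor of late cytoplasmic maturation, which stood at 8.81, 9.22 and 9.26 in promyelocytes and 5.52, 5.37 and 5.43 in myelocytes and fell by 3.65 ± 0.16 (12.6-fold, adjusted p = 1.42e-10). It was followed by Wdr43, a protein of the early complex that binds the nascent transcript, which fell by 3.25 ± 0.19 (9.53-fold, adjusted p = 2.62e-09). The smallest called fall was that of Imp4, a protein of the U3 complex, which fell by 1.17 ± 0.21 (2.25-fold, adjusted p = 0.000317). The exceptions were Dcaf13 and Ltv1. Dcaf13, a small subunit processome protein, stood at 7.95, 8.01 and 7.98 in promyelocytes and 7.33, 7.56 and 7.67 in myelocytes, which did not overlap, and differed by -0.46 ± 0.15, adjusted p = 0.0226. Ltv1, which helps to export the small subunit, stood at 8.06, 8.30 and 7.45 and 7.01, 6.89 and 7.14 and differed by -0.92 ± 0.19, adjusted p = 0.00084. Both passed the adjusted p and not the fold, and Ltv1 was called without promyelocyte array 3 (-1.16). The other members of this group lay between -3.24 for Utp20 and -1.20 for Utp18, and they included the rRNA acetyltransferase Nat10 (-3.00) and the endonuclease Nob1 (-2.30), which makes the last cut of 18S rRNA.

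Of 17 large subunit factors 16 fell, with a median difference of -2.61. Nucleostemin, Gnl3, a GTPase of the nucleolus, stood at 9.06, 9.29 and 8.92 in promyelocytes and 5.35, 5.41 and 5.31 in myelocytes and fell by 3.73 ± 0.18 (13.3-fold, adjusted p = 3.43e-10). This was the largest fall among all 53 genes. Wdr12, Pes1 and Bop1 form a complex that is needed for 28S rRNA, and they differed by -3.43 ± 0.23, -2.09 ± 0.18 and -1.56 ± 0.16, so that the falls within this complex ranged from 2.94-fold to 10.8-fold. The smallest called fall was that of Nip7, which acts in pre-rRNA processing, and which fell by 1.46 ± 0.28 (2.75-fold, adjusted p = 0.000622). The exception was Ebna1bp2, a nucleolar assembly factor, which stood at 9.13, 9.01 and 8.98 in promyelocytes and 8.21, 8.10 and 8.20 in myelocytes. Its stages did not overlap, and the difference of -0.87 ± 0.14, adjusted p = 0.000147 was short of a fold of 2. For Fbl, Wdr12 and Ddx18, the 3 genes with another row on the array, that row differed by -2.28, -3.72 and -2.50 on its own means. The other row of Wdr12 had a myelocyte mean of 4.26, so its fall is a lower bound. That mean lay under 4.51, the dim level set by olfactory and vomeronasal receptor genes. From myelocytes to granulocytes the other rows differed by -0.22, -0.37 and -0.93, and the brightest row of Ddx18, which was called lower, by -1.58.

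**Figure D2:**
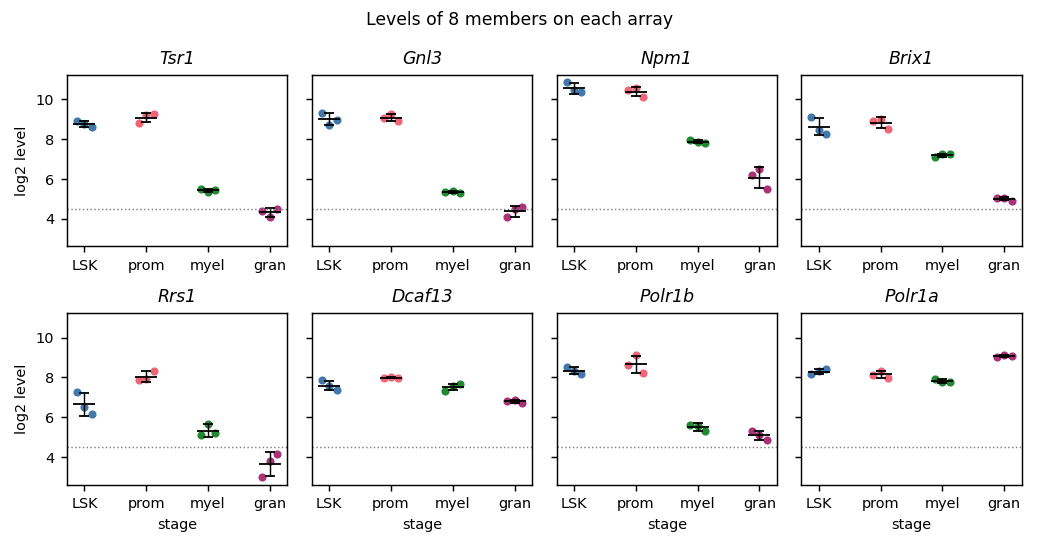
Log2 level of 8 members on each array (points) with the mean and standard deviation of the 3 arrays of a stage (bars) in LSK cells, promyelocytes (prom), myelocytes (myel) and granulocytes (gran). The dotted line marks the dim level of 4.51. Tsr1 and Gnl3 fall to that line over the 2 later steps, Brix1 falls at both, and Polr1a is highest in granulocytes.

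From myelocytes to granulocytes fewer of the genes changed. Limma called 20 of the 53 lower and 1 higher, where 5.96% of all genes were called lower and 2.35% higher. The granulocyte means of 8 genes, Nop58, Dkc1, Gnl3, Noc3l, Rrs1, Tsr1, Utp20 and Pno1, were at or under 4.51, the dim level set by olfactory and vomeronasal receptor genes. Their falls to granulocytes are therefore lower bounds, for which no fold or rank is given, and 5 of the 20 calls were among them. Markers of other cells fell at this step too: 6 of 7 markers of basophils and mast cells were called lower (median -4.77), with sums of 5052 to 17520 in myelocytes and 3046 to 3592 in granulocytes. The 1 marker not called differed by 0.39, and the median level of the 7 was only 5.08 to 5.51 on the granulocyte arrays. Of 8 markers of monocytes and macrophages 5 were called lower and 2 higher (median -1.56), with sums of 1096 to 3017 and of 1188 to 1294. The part of these cells in the result was not tested. The gene called higher was Polr1a, which stood at 7.92, 7.78 and 7.75 in myelocytes and 9.05, 9.12 and 9.08 in granulocytes. All 3 granulocyte arrays lay above every array of the other stages, and Polr1a rose by 1.27 ± 0.14 (2.41-fold, adjusted p = 6.93e-06). It remained called in each of the 12 fits that left out 1 array, with differences of 1.24 to 1.32. The other subunits did not rise. Polr1e fell by 1.30 ± 0.20 (2.46-fold, adjusted p = 0.000226), while Polr1c (-0.59 ± 0.19, adjusted p = 0.0398) and Polr1b (-0.40 ± 0.20, adjusted p = 0.18) were not called.

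Among the 45 genes above the dim level in granulocytes the largest fall at this step was that of Brix1, a large subunit factor that stood at 7.10, 7.24 and 7.25 in myelocytes and 5.03, 5.07 and 4.92 in granulocytes and fell by 2.19 ± 0.19 (4.56-fold, adjusted p = 1.51e-06). The box C/D protein Nop58, at 6.21, 6.64 and 6.49 in myelocytes, was called lower and reached the dim level. Its partner Nop56 differed by -1.08 ± 0.25, while Fbl was not called (-0.70). In the box H/ACA class Dkc1, which reached the dim level, and Nop10 (-1.36) were called, and Nhp2 (-0.86) and Gar1 (-0.81) were not. Nop10 rested on single arrays: its difference was -0.90 (adjusted p = 0.175) without granulocyte array 3. Of the nucleolar chaperones Npm1, at 6.18, 6.52 and 5.49 in granulocytes, fell by 1.82 ± 0.22 (3.53-fold, adjusted p = 2.21e-05), and Ddx21 differed by -1.47. Nolc1 (-0.74), Mybbp1a (-0.70) and Ncl (-0.53) were not called.

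Of the small subunit factors 7 were called lower, with Ltv1 (-1.71 ± 0.19) and Utp18 (-1.62 ± 0.21) at the head of those above the dim level. Ltv1, which had not been called at the step before, stood at 5.23, 5.45 and 5.24 in granulocytes, far below its myelocyte arrays. Of the large subunit factors 6 were called lower, led by Brix1, with Nip7 (-1.04 ± 0.28) the smallest of those above the dim level. The remaining 32 genes that were not called had measured differences of -0.96 to 0.11, and all but Nop2 (0.07), an rRNA methyltransferase, and Utp14a (0.11), a small subunit factor, lay below 0. Gnl3 (-0.96), Noc3l and Utp20 among them were under the dim level in granulocytes, so their falls are lower bounds. At the adjusted p with no minimum fold 38 genes passed as lower, against 13.9% of all genes. With each array centred on its 75th percentile, which was lowest in granulocytes, 13 were called lower, against 3.66% of all genes.

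The falls at the 2 later steps were compared with a test of their difference in the same limma fit, which was added after the values had been seen. The change from promyelocytes to myelocytes lay further below that from myelocytes to granulocytes for 38 of the 53 genes at an adjusted p under 0.05, as it did for 7.09% of all genes. Among the 38 was Polr1a, which rose at the later step. The reverse was called for 0 of the 53 genes, against 1785 of the 19937 genes tested, and 15 of the 53 were not called either way. Of the 38, 7 had granulocyte means at or under the dim level, which limits the later fall that can be measured. Among the 45 genes above it 31 were called, and the gap was largest for Nop16 and Fbl, at -2.92 ± 0.28 and -2.79 ± 0.30. Ltv1, Brix1, Utp18, Dcaf13 and Polr1e had estimates on the other side, from 0.16 to 0.79, and none of these passed. Of the whole fall from promyelocytes to granulocytes, the part reached by the myelocyte stage had a median of 73.8% over the 44 genes that were called lower between these stages and lay above the dim level in granulocytes, with a range from 35.0% for Ltv1 to 107% for Utp14a. Each of the 2 differences contains the myelocyte arrays, so an error there moves both in opposite directions.

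**Figure D3:**
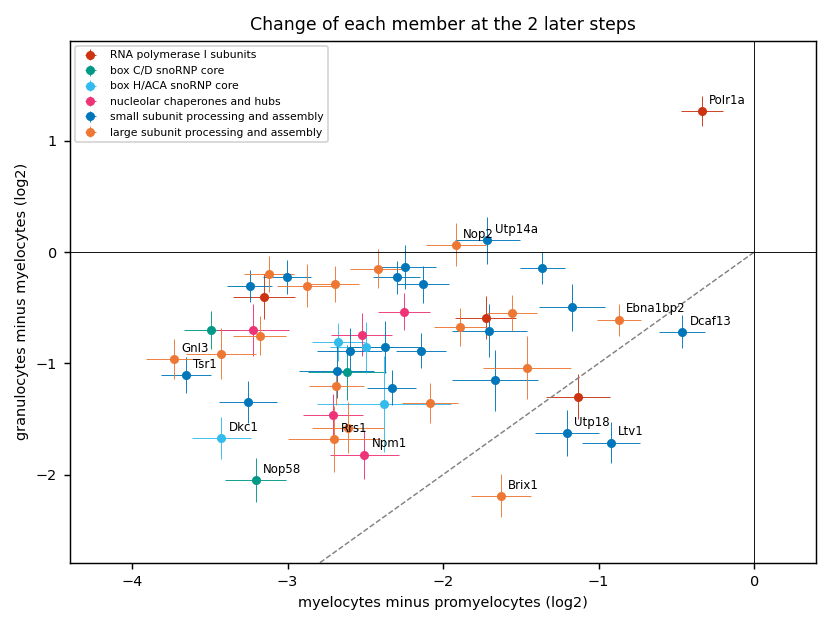
Change of each of the 53 genes from promyelocytes to myelocytes (horizontal axis) and from myelocytes to granulocytes (vertical axis), as log2 differences with standard errors, coloured by role. The dashed line marks equal changes, so points above it fell more at the earlier step. Most points lie above the line, and Polr1a is the only one with a rise past a fold of 2.

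Between promyelocytes and granulocytes 52 of the 53 genes were called lower and 0 higher, where 16.3% of all genes were called lower and 10.1% higher. The median difference was -3.27 and that of all genes 0.13. The 8 genes at or under the dim level in granulocytes were all called, and the sizes of their falls are lower bounds. One of them was Nop58, which stood at 9.79, 9.91 and 9.25 in promyelocytes and 4.22, 4.43 and 4.54 in granulocytes. Among the 44 other genes called, the largest differences were those of Wdr43 (-4.60 ± 0.19), Wdr12 (-4.34 ± 0.23) and Npm1 (-4.33 ± 0.22). Wdr12 stood at 4.41, 5.09 and 4.43 in granulocytes, under the dim level on arrays 1 and 3, so the size of its fall is uncertain. Dcaf13 (-1.18 ± 0.15) and Ebna1bp2 (-1.48 ± 0.14) were called across both steps though at neither alone. Polr1a was the exception, at 0.93 ± 0.14, adjusted p = 2.36e-05, short of a fold of 2. It passed that fold with each array centred on its median (1.02) or its 75th percentile (1.31) and without promyelocyte array 2 (1.02). Dcaf13 was at -0.80 with the 75th percentile centring and was then not called.

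Other genes of the pathway, which are not among the 53, were lower in myelocytes too. From promyelocytes to myelocytes 25 of 40 further small subunit factors were lower and 0 higher, with a median of -1.25. The largest falls were those of Wdr36 (-2.70), Rcl1 (-2.63) and Utp4 (-2.38). Of 42 further large subunit factors 27 were lower and 0 higher, with a median of -1.22, led by Sdad1 (-2.90), Znhit6 (-2.53) and Rsl1d1 (-2.44). Across both later steps the counts rose to 29 of 40 and 36 of 42. The RNA exosome, which trims and degrades precursor RNA, had 6 of 14 subunits and cofactors lower at the earlier step, led by Exosc2 (-2.55), Dis3 (-2.24) and Exosc5 (-2.09), and 11 of 14 across both. Without promyelocyte arrays 1 and 3 the counts at the earlier step were 26 of 40, 31 of 42 and 7 of 14. Of 5 host genes of small nucleolar RNAs, Gas5 (-2.20) and Snhg16 (-1.70) fell to myelocytes. Of 54 rows for small nucleolar RNAs 14 were lower and 0 higher (10 and 0 without those arrays), with the largest falls in Snord53 (-2.33), Snora20 (-1.91) and Snora75 (-1.74). Between promyelocytes and granulocytes 22 of these rows were lower, and Snora31 (1.00 ± 0.24) was higher.

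Of 12 further RNA polymerase I subunits and initiation factors 5 fell from promyelocytes to myelocytes. The largest falls were those of Taf1d (-1.58 ± 0.28), Rrn3 (-1.47 ± 0.19), the factor that makes the polymerase competent to initiate, and Taf1a (-1.34 ± 0.21). Rrn3 stood at 6.71, 7.04 and 6.79 in myelocytes and 5.11, 5.32 and 5.26 in granulocytes and was the only one of the 12 to be called at the last step, where it fell by 1.62 ± 0.19 (3.07-fold, adjusted p = 1.86e-05). Baz2a, a subunit of the complex that silences ribosomal DNA, moved the other way. It stood at 7.84, 7.82 and 8.23 in promyelocytes and 9.08, 9.09 and 9.25 in myelocytes and rose by 1.18 ± 0.18 (2.26-fold, adjusted p = 7.34e-05).

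Cytosolic ribosomal proteins, the partners of ribosomal RNA in the finished subunits, were also lower. Of 59 genes 44 were lower and 0 higher in myelocytes than in promyelocytes, with a median of -1.23, led by Rpl36a (-2.65), Rpl10a (-2.31) and Rps20 (-2.21). A further 14 calls were made from myelocytes to granulocytes. In the test of the difference between the steps 10 of the 59 fell more at the earlier step, 0 at the later one, and 49 were not called. Many ribosomal protein genes have processed copies in the genome that share probe sequence, so single values among them are uncertain.

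Genes of mitosis had another course. Of 18 such genes limma called 0 from promyelocytes to myelocytes, with 4 at an unadjusted p under 0.05 against 40.4% of all genes, and a median of -0.30. Myelocyte array 1 stood apart, with a median level over the 18 genes of 7.29 against 8.45 and 8.38 on the other myelocyte arrays, and without it the median difference was 0.07, also with 0 genes called. From myelocytes to granulocytes all 18 were lower, with a median of -2.69, or -3.08 without that array. The test of the difference between the steps called all 18 as falling more at the later step, also without myelocyte array 1. In that direction 1785 of the 19937 genes tested were called, and none of the ribosome biogenesis genes was. The median over the 18 of the earlier change minus the later one was 2.49. It was 2.30 without promyelocyte arrays 1 and 3, which leaves 1 promyelocyte array.

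**Figure D4:**
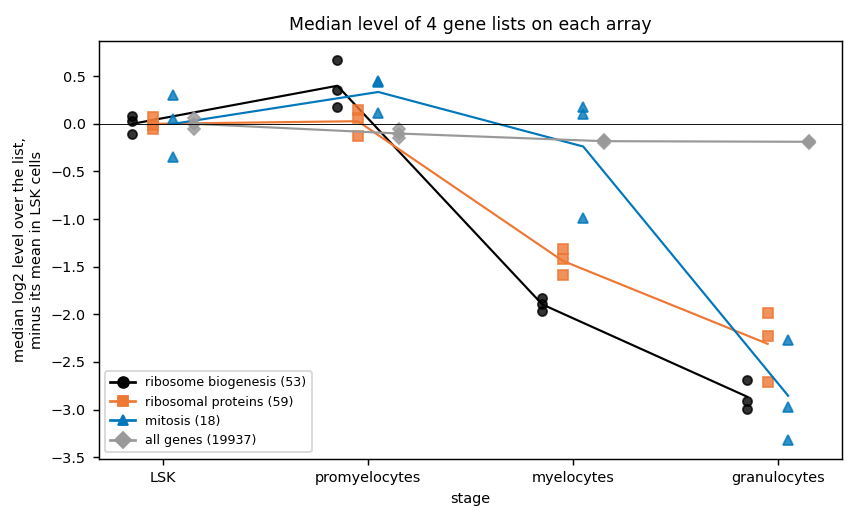
Median log2 level of 4 gene lists on each array, minus the mean of that median over the LSK arrays, by stage. Points are arrays and lines join the means of the 3 arrays of a stage. The ribosome biogenesis genes drop between promyelocytes and myelocytes, and the mitosis genes between myelocytes and granulocytes, with 1 myelocyte array (array 1) below the other 2.

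**Figure D5:**
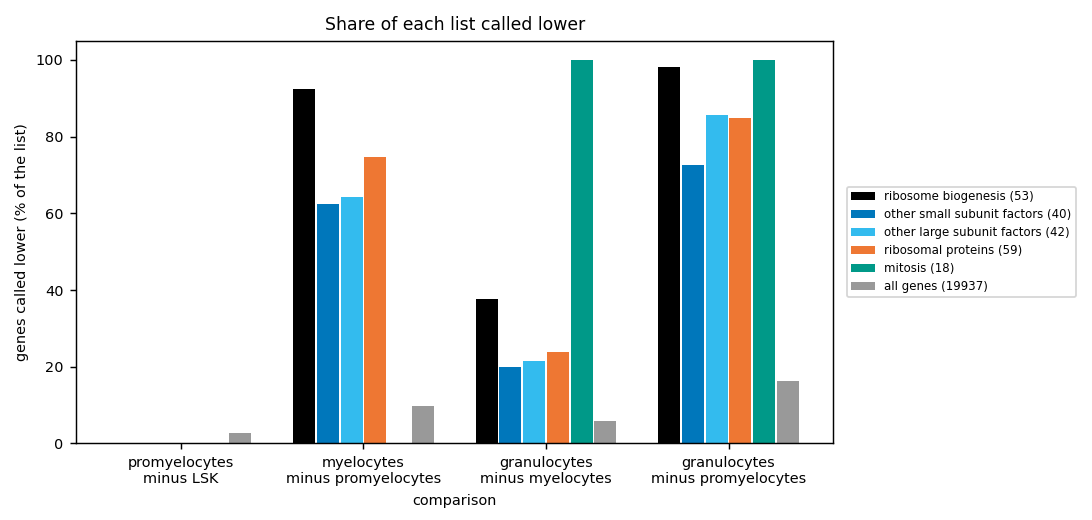
Share of the genes of each list called lower (2-fold or more with an adjusted p below 0.05) in each of the 4 comparisons, with the number of genes measured in brackets. At the step from promyelocytes to myelocytes 49 of the 53 ribosome biogenesis genes and 0 of the 18 mitosis genes were called, against 9.87% of all genes.

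Myc, which drives the transcription of many of these genes, was measured on the same arrays. It stood at 10.46, 10.76 and 11.14 in LSK cells, 10.23, 10.51 and 9.67 in promyelocytes, 6.25, 5.26 and 5.67 in myelocytes and 4.39, 4.82 and 4.53 in granulocytes. Its levels in LSK cells and promyelocytes were not called different (-0.65 ± 0.26, adjusted p = 0.117). It differed by -4.41 ± 0.26 from promyelocytes to myelocytes and by -1.15 ± 0.26 from there to granulocytes. Granulocyte array 1 lay under the dim level of 4.51, so the size of the last difference is uncertain. Of the Myc network, 1 gene was called lower from myelocytes to granulocytes, and 0 were without myelocyte array 1. Mycn, a relative of stem and progenitor cells, was lower in promyelocytes than in LSK cells (-2.71 ± 0.27) and stayed at 4.19 to 5.39 on all later arrays. Max, the shared partner of the family, stood at 8.42, 8.44 and 8.56 in promyelocytes and 9.83, 9.74 and 9.80 in myelocytes and rose by 1.32 ± 0.12 (2.5-fold, adjusted p = 4.13e-07). The antagonists Mxi1 and Mxd1, which pair with Max in place of Myc, rose at that step by 1.44 ± 0.12 and 3.80 ± 0.17. Mxd1 stood at 11.59, 11.52 and 11.91 in granulocytes, the stage in which 50 of the 53 ribosome biogenesis genes had their lowest mean. None of the other network members measured was called at this step. The part of these factors in the levels of the ribosome biogenesis genes was not tested.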

How the data were processed

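Total RNA of LSK cells, promyelocytes, myelocytes and granulocytes was measured on 12 one-colour Affymetrix Mouse Gene 1.0 ST arrays, 3 per population. The deposited values are log2 values that the authors made with justRMA (version: not given in the sources), which corrects background, quantile-normalizes probes and summarizes probe sets by median polish. Quantile normalization gives all arrays nearly the same distribution, so a shift of all RNA is not seen. No further normalization was applied. Array medians were 4.96 to 5.12.

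Rows with 1 gene symbol in the platform's probe table were used (21640 of 34760 rows, of which 21553 matched the reference gene table), and the highest-mean row was kept for each of 19937 genes. Tests were made with limma 3.58.1 (R 4.3.3). A single model with a mean for each of the 4 populations was fitted to 12 arrays, and calls needed a change of 2-fold or more and an adjusted p (Benjamini-Hochberg) below 0.05. The median within-group SD was 0.21, and the number of arrays limits the precision. Separate animals are not stated for the arrays, so p-values reflect only the spread among these arrays, part of which may be technical. The labels do not say that a replicate number marks a shared animal or day, but same-numbered arrays of promyelocytes and myelocytes deviated together (correlations of 0.12 to 0.20), and not all those of the other stages did. The script was tested on simulated data. The 95th percentile of 1194 olfactory and vomeronasal receptor genes, 4.51, served as the dim level. Promoters were searched for letters given in the text. The members and the other gene lists were chosen with earlier results of these data known. In each role the largest and smallest differences and the members not called were named. Alternatives were other centrings, cyclic loess, a filter on dim genes, the mean of rows, other thresholds, a trended robust variance, fits of 2 groups, a replicate block and leaving out each array. The study's measurements of miRNAs were not used here.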

Additional observations from a re-analysis of the deposited data

How the results depend on the processing

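No result over the members reversed its direction under any alternative run. Of 2741 comparisons of single genes with an alternative, 28 lost and 5 gained a call. The 5 leave out genes that gained a call from LSK cells to promyelocytes, such as Ftsj3, Nip7 and Pno1 without LSK array 1. They also leave out gains from myelocytes to granulocytes when 1 array was left out, such as Gnl3 in 2 fits and Nhp2 in 1. Gains are therefore undercounted. Leaving out each array in turn gave 1 to 4 members called higher in promyelocytes than in LSK cells (4 without LSK array 1), a median difference from promyelocytes to myelocytes of -2.61 (without promyelocyte array 3) to -2.27, and 0 to 1 members called higher in granulocytes than in promyelocytes, the 1 being Polr1a without promyelocyte array 2. With no minimum fold the members called higher in promyelocytes than in LSK cells were 9, those lower in granulocytes than in myelocytes 38 and those higher in granulocytes than in promyelocytes 1. With median centring the members higher in promyelocytes than in LSK cells were 2 and those higher in granulocytes than in promyelocytes 1. With 75th percentile centring, which moved the median of all genes to 0.37 and 0.51 in the comparisons of granulocytes with myelocytes and with promyelocytes, 13 members were lower in granulocytes than in myelocytes (median -0.53), and 1 was higher than in promyelocytes (median -2.89). Leaving out promyelocyte arrays 1 and 3 was a choice made after seeing the data. It leaves 1 promyelocyte array, assumed to vary like the others. In that fit the medians were 0.52 from LSK cells to promyelocytes, -2.68 from promyelocytes to myelocytes and -3.54 from promyelocytes to granulocytes. The causes were not tested. From myelocytes to granulocytes, calls were lost by leaving out a single array for Nip7 (myelocyte array 3 or granulocyte array 1 or 3), Nop10 (any myelocyte array or granulocyte array 3), Pno1 (myelocyte array 1 or granulocyte array 3), Nop56 (granulocyte array 1), Tsr1 (granulocyte array 2) and Imp3 (granulocyte array 3). The larger fall at the earlier step was called for 31 to 41 members.

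The deviations of arrays with the same replicate number from the group means correlated over 0.1 in 7 of 18 pairs (-0.25 to 0.25), among them all 3 pairs of promyelocytes and myelocytes (0.12 to 0.20), and 8 of 12 arrays correlated best with their own number. With the replicate block, 49 members were lower from promyelocytes to myelocytes, 20 from myelocytes to granulocytes and 52 from promyelocytes to granulocytes, the counts of the fit without it. In a blocked fit of promyelocytes and myelocytes alone, added after seeing the data, 49 members were lower.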
